A study of Mus musculus with 15 samples.

Results

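The Notch pathway genes *Notch1*, *Notch2* and *Notch4* (receptors), *Jag1*, *Jag2* and *Dll4* (ligands), *Rbpj* (the nuclear effector) and *Hes1*, *Dtx1* and *Dtx4* (known targets) were followed across 5 cell populations of the small intestinal lamina propria (LP). The genes were listed by name, and each was read from the probeset, the group of probes on the array that stands for a gene, with the highest mean among those assigned to that gene alone. They are 10 of 19938 genes measured in this way. The populations were 4 subsets of dendritic cells (DCs), sorted as CD64- and split by CD103 and CD11b into CD103+CD11b+, CD103+CD11b-, CD103-CD11b+ and double-negative CD103-CD11b- cells, together with CD64+ macrophages (mϕ), with 3 arrays each and 15 in all. All cells came from untreated adult WT C57BL/6 mice in the steady state, and no group carried a transgene or a deletion. Values are log2 signals, so that a difference of 1 is a doubling, and a level may be compared between populations for a gene but not between genes, because each probeset binds its target with its own efficiency. How many mice went into an array is not stated, so the errors and p-values measure the spread between arrays.

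Notch receptors sit in the cell surface and are cleaved when a Jagged or Delta-like ligand on a neighbouring cell binds them. The last cut, by γ-secretase, frees the intracellular part, which enters the nucleus, joins RBPJ and a Mastermind co-activator, and switches on targets such as *Hes1*, a transcriptional repressor, and *Dtx1*, which encodes a Deltex E3 ubiquitin ligase. In mice, NOTCH2 signalling in DCs is known to be needed for CD103+CD11b+ DCs of the small intestine and for ESAM+ DCs of the spleen.

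The promoters of *Notch1* and *Notch2* are shown because, of these related receptors, *Notch1* differed between the populations and *Notch2* did not pass the same test. Each sequence is the 250 bases before the start of the gene, 5′ to 3′ on the gene's own strand, from RefSeq (build GRCm38.p6). The first lies at chr2:26503823-26504072 on the minus strand and the second at chr3:98013288-98013537 on the plus strand.

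Notch1: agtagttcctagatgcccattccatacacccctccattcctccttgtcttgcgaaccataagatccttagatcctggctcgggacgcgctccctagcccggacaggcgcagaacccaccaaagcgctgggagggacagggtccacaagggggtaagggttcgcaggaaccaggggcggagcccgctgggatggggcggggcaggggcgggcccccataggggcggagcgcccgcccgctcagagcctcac

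Notch2: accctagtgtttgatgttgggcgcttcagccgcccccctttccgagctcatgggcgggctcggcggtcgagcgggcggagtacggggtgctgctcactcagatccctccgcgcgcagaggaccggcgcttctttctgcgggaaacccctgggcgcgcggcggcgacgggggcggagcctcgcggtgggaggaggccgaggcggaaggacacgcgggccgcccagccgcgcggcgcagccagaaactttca

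Bases G and C made up 66.0% of the *Notch1* sequence and 72% of the *Notch2* sequence, against a median of 52.4% over 32851 windows of this length in the table. They held 16 and 34 CpG dinucleotides, against a median of 6. The RBPJ motif GTGGGAA, searched on both strands, is found in 5.42% of all windows. Its shorter core TGGGAA, which lies within that motif, is found in 21.6%. Neither was in the *Notch1* or *Notch2* sequence, which is why no base is in capitals. Of the 10 genes, 8 had a window in the table, all but *Hes1* and *Dtx4*. None of the 8 held the longer motif. The core was found in the windows of *Rbpj* alone. Both windows lie inside the gene, so each precedes a start further in than the first base of the gene. The core was at 149 and 65 bases before that start in the first window and at 205 bases before its start in the second. The windows overlap, and the last of these positions is the same site as that at 65 bases, so there are 2 sites. These are matches of letters and say nothing of binding.

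The sorted populations were checked before the genes were read. *Fcgr1*, which encodes CD64, had a mean log2 signal of 8.92 in mϕ and of 3.83 to 4.8 in the DC subsets. *Itgae*, the gene for CD103, read 10.38 and 10.9 in the CD103+ subsets, 7.84 and 8.76 in the CD103- subsets and 5.09 in mϕ. The signal of *Itgam*, the gene for CD11b, was 9.53 to 10.24 where cells were sorted as CD11b+ and in mϕ, and 4.93 and 6.64 in the CD11b- subsets with and without CD103. The DC genes *Flt3* and *Zbtb46* were at 9.47 to 10.09 and 7.11 to 7.37 in the DC subsets and at 5.31 and 6.04 in mϕ. The array medians over all genes lay between 5 and 5.14, and replicate arrays correlated at 0.978 to 0.995. Levels of pancreatic acinar genes, which none of these cells is known to make, gave a list mean of 4.8 to 8.93 between arrays, with a highest array of at least 7.25 in every population. Values without the acinar-richest array of each population are given where these end a call.

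A gene was taken to differ among the 5 populations when limma's moderated F test gave a Benjamini-Hochberg adjusted p under 0.01 over all genes and its population means spanned more than 1. By this rule 4 of the 10 Notch genes differed, against 10.7% of all genes measured. They were the receptor *Notch1*, the ligand *Jag2* and the targets *Hes1* and *Dtx4*. *Rbpj* passed on the adjusted p alone, as its means spanned 0.74, and *Notch2*, *Notch4*, *Jag1*, *Dll4* and *Dtx1* passed on neither. The median range of the population means was 0.73 for the 10 genes, 0.46 for 48 other Notch pathway genes and 0.28 for all genes. The 10 genes were chosen with earlier results of these data known. These shares and ranges describe them, not the pathway as a whole. Single comparisons were called at the same adjusted p and a log2 difference over 1.

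**Figure D1:**
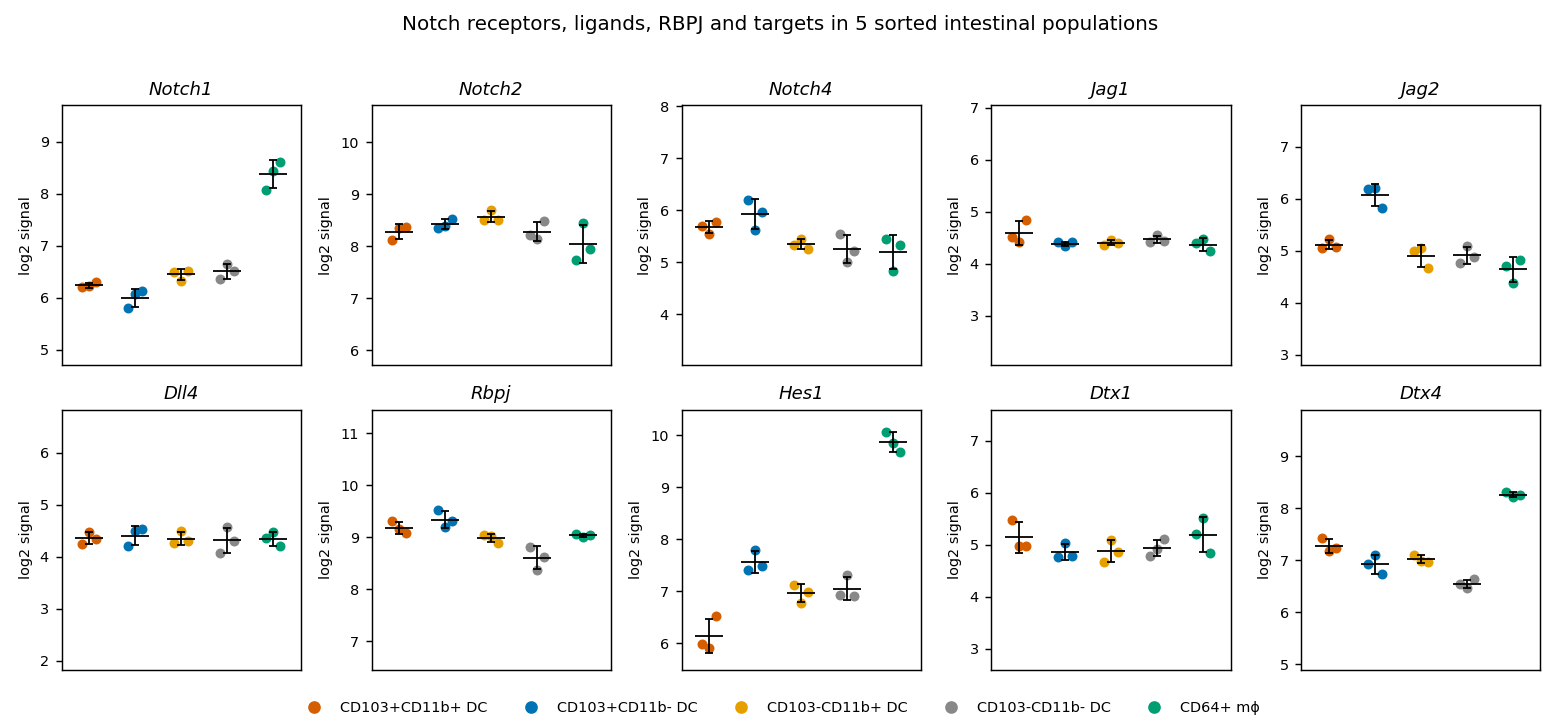
Log2 signal (y axis) of the 10 Notch genes on each of the 15 arrays; dots are arrays coloured by population, horizontal lines are means and bars are SD (n = 3), and every panel spans 5 log2 units. The mϕ arrays stand above all DC arrays for *Notch1*, *Hes1* and *Dtx4*, and the CD103+CD11b- DC arrays stand above all others for *Jag2*.

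Among the receptors, *Notch1* was high in mϕ. Its log2 signal was 8.07, 8.44 and 8.6 on the 3 mϕ arrays. The 12 DC arrays lay between 5.79 and 6.64, so mϕ and DCs did not overlap. On the log2 scale *Notch1* in mϕ exceeded the average of the 4 DC subsets by 2.07 (SE 0.1, adjusted p = 8.01e-10), which is 4.21-fold. Against the DC subsets one by one the difference ran from 1.86 over CD103-CD11b- DCs to 2.38 over CD103+CD11b- DCs, and all 4 were called. Within the DCs the mean ± SD was 5.99 ± 0.18 for CD103+CD11b- cells and 6.24 ± 0.04 for CD103+CD11b+ cells. Without CD103 it was 6.44 ± 0.11 in the CD11b+ subset and 6.5 ± 0.15 in the CD11b- subset. None of the 6 comparisons between DC subsets was called for *Notch1*, the nearest being CD103-CD11b- against CD103+CD11b- DCs with 0.51 (adjusted p = 0.02). Neighbours in this order of the DC subsets differed by 0.06 to 0.24, with adjusted p-values of 0.331, 0.729 and 0.921.

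The population means of *Notch2* lay within 0.53 of each other. On the CD103+CD11b+ DC arrays it was at 8.12, 8.36 and 8.37. The CD103+CD11b- DC arrays gave 8.36, 8.4 and 8.53, and the CD103-CD11b+ DC arrays 8.51, 8.69 and 8.5. The CD103-CD11b- DC arrays read 8.21, 8.15 and 8.49 and the mϕ arrays 7.73, 8.44 and 7.94. All populations thus overlapped with at least 1 other, and the F test gave an adjusted p of 0.112. For CD103+CD11b+ DCs, the difference from CD103-CD11b+ DCs was -0.28 (95% interval -0.61 to 0.04, adjusted p = 0.641) and that from CD103+CD11b- DCs was -0.14 (-0.47 to 0.18, adjusted p = 0.691). Neither interval reached a doubling in either direction. In mϕ, *Notch2* lay below the DC average, with a difference of -0.36 (adjusted p = 0.0417) that did not pass.

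*Notch4*, a receptor best known from endothelial cells, ranged from 4.83 to 6.2 over the arrays, with an F test adjusted p of 0.0197. Its mean was highest in CD103+CD11b- DCs at 5.93 ± 0.29 and lowest in mϕ at 5.2 ± 0.33. That pair differed by 0.72 with an adjusted p of 0.00707, short of the limit on size. The list of 12 endothelial markers lay at a mean of 4.37 to 4.75 on every array, and none of the 12 was called in any comparison.

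Of the ligands, *Jag2* was high in CD103+CD11b- DCs. These arrays read 6.18, 6.21 and 5.82, and the other 12 arrays lay between 4.38 and 5.23, with no overlap. The CD103+CD11b+ DC arrays, at 5.06, 5.23 and 5.07, were the next. Measured from CD103+CD11b- DCs, the difference of *Jag2* was -1.16 for CD103-CD11b+ DCs (SE 0.14, adjusted p = 5.29e-05). It was also -1.16 for the double-negative subset (adjusted p = 7.3e-05) and -1.43 for mϕ (adjusted p = 2.31e-06), and all 3 were called. For CD103+CD11b+ DCs it was -0.95 with an adjusted p of 0.000337, just short of the limit on size. Without the second CD103+CD11b+ array or the third CD103+CD11b- array that comparison was called, at -1.01 and -1.07. Without the acinar-richest arrays, the difference of CD103-CD11b+ DCs was -0.97 (adjusted p = 0.00107) and no longer passed on size. The 4 populations other than CD103+CD11b- DCs had means of 4.64 to 5.12, and no pair of them was called.

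*Jag1* and *Dll4* varied little between arrays. *Jag1* read 4.24 to 4.85 and *Dll4* 4.08 to 4.57 over all arrays, with population means 0.22 and 0.09 apart and F test adjusted p-values of 0.472 and 0.983. No detection calls were used, so whether these signals, or the lower ones of *Jag2*, lie above the background of the array cannot be said.

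*Rbpj*, through which all 4 mouse Notch receptors reach the DNA, was lowest in CD103-CD11b- DCs. These arrays read 8.82, 8.38 and 8.62, below the other 12, which lay between 8.9 and 9.52. Against the CD103+ subsets the difference of *Rbpj* was -0.74 where these lacked CD11b (adjusted p = 0.000446) and -0.58 where they had it (adjusted p = 0.00471), both short of the limit on size. Against CD103-CD11b+ DCs it was -0.38 (adjusted p = 0.0916), and mϕ were 0.43 above CD103-CD11b- DCs (adjusted p = 0.0118). Neither of these passed on the adjusted p. The other means were 9.18 ± 0.12 for CD103+CD11b+ DCs, 9.34 ± 0.16 for the CD103+CD11b- subset, 8.99 ± 0.08 for the CD103-CD11b+ subset and 9.04 ± 0.03 for mϕ, with no pair at an adjusted p under 0.01. The plasmacytoid DC list and the B and plasma cell list moved with the low *Rbpj* of CD103-CD11b- DCs. Their means were 8.16 to 8.55 and 7.25 to 7.71 in that population, against 6.46 to 7.49 and 5.66 to 7.22 in the others. The T cell list was also highest there, at 5.74 to 5.99 against 4.69 to 5.71. Its genes *Thy1* (9.21), *Cd28* (7.59) and *Cd8b1* (5.86) were highest in that population. Its other measured genes, *Cd3d* (3.99), *Cd3e* (5.36), *Cd3g* (4.86), *Bcl11b* (5.1) and *Cd5* (4.89), were not. Of the B and plasma cell list, *Mzb1* (10.53) and *Jchain* (12.26) were highest in that population. The B cell genes *Pax5* (4.38) and *Ms4a1* (3.74) were not. The part of these markers in the result was not tested. A mixed population in which fewer cells carry a transcript and a population in which each cell carries less of it cannot be told apart on these arrays. A second probeset of *Rbpj*, not used, had means of 3.18 to 3.61.

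*Hes1* separated the populations most widely of the 10 genes. Its log2 signal was 10.07, 9.86 and 9.68 in mϕ. CD103+CD11b- DCs read 7.41, 7.8 and 7.49. The arrays of CD103-CD11b+ DCs gave 7.13, 6.78 and 6.98 and those of CD103-CD11b- DCs 6.93, 7.31 and 6.92. CD103+CD11b+ DCs read 5.99, 5.91 and 6.52, below every other array. The mϕ arrays lay above all DC arrays, and CD103+CD11b- arrays lay above those of the other DCs.

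*Hes1* in mϕ exceeded the DC average by 2.94 (SE 0.14, adjusted p = 3.45e-10), or 7.67-fold. The difference was smallest against CD103+CD11b- DCs at 2.3 and largest against CD103+CD11b+ DCs at 3.73, which is 13.28-fold, and all 4 were called. CD103+CD11b+ minus CD103+CD11b- DCs gave -1.43 for *Hes1* (SE 0.17, adjusted p = 3.57e-05), which is 2.69-fold less and was called. CD103-CD11b- minus CD103+CD11b+ DCs gave 0.91 (adjusted p = 0.00325), short of the limit on size, and CD103+CD11b+ minus CD103-CD11b+ DCs gave -0.82 (adjusted p = 0.0225), which did not pass. The third CD103+CD11b+ array, the highest of its population at 6.52, decided both. Without it these differences were 1.1 and -1.01, and both were called. The CD103- subsets, neighbours in the order, differed by 0.09 (95% interval -0.27 to 0.46).

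The difference of *Hes1* that goes with CD11b was thus not the same in CD103+ and CD103- DCs. Among CD103+ DCs *Hes1* was lower in the CD11b+ subset, whereas the CD103- subsets overlapped. The interaction, which is the difference between these 2 differences, was -1.34 (SE 0.24, adjusted p = 0.00393) and was called. It lost the call, with adjusted p-values of 0.0115 to 0.0146, when any of 7 arrays was left out, namely replicates 1 and 2 of CD103+CD11b+, replicate 2 of CD103+CD11b-, replicates 1 and 3 of CD103-CD11b+ and replicates 1 and 3 of CD103-CD11b- DCs, and also without the acinar-richest arrays (-1.23, adjusted p = 0.0508). For *Jag2* the interaction was -0.95 (adjusted p = 0.0131), not called; it was called, at -1.07, without the third CD103+CD11b- or the third CD103-CD11b+ array.

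*Hes1* is also known from intestinal epithelium, so epithelial markers were read beside it. The mean of 15 epithelial markers was 6.69 to 7.23 on the CD103+CD11b+ arrays and 6.66 to 7.04 on the CD103+CD11b- arrays, which are the DCs whose *Hes1* differed most. The median difference of the list between them was 0.02, and none of the 15 was called. The list lay at 5.93 to 6.27 in CD103-CD11b+ DCs, 6.03 to 6.63 in CD103-CD11b- DCs and 6.18 to 7.47 in mϕ. Of the 15 markers, *Fabp1* and *Fabp2*, which encode fatty acid binding proteins of enterocytes, were called higher in mϕ than in DCs on average, and none lower. Their means were 9.87 and 10.41 in mϕ, against 6.85 to 7.9 and 7.55 to 8.81 in the DC subsets. *Fabp1* and *Fabp2* thus moved with the high *Hes1* of mϕ, while the median difference of the whole list from the DC average was -0.09. The part of epithelial transcripts in the *Hes1* signal was not tested.

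*Dtx4*, a relative of *Dtx1*, was also high in mϕ, at 8.31, 8.22 and 8.25. CD103+CD11b+ DCs read 7.42, 7.17 and 7.23. The CD103-CD11b+ arrays gave 7.11, 6.99 and 6.97 and the CD103+CD11b- arrays 6.93, 7.1 and 6.74. CD103-CD11b- DCs were the lowest, with 6.54, 6.47 and 6.63. The mϕ arrays lay above, and the CD103-CD11b- arrays below, all the others. The excess of *Dtx4* in mϕ over the DC average was 1.32 (SE 0.08, adjusted p = 5.36e-09), or 2.5-fold. It was called against CD103+CD11b- DCs (1.34) and against the CD103- subsets with (1.24) and without (1.72) CD11b. It was not called against CD103+CD11b+ DCs, where the difference was 0.99 with an adjusted p of 2.66e-06. That last difference passed the limit on size at 1.03 with cyclic loess normalization and also with array weights. The same held at 1.07 without the first CD103+CD11b+ array and at 1.01 without the second mϕ array. Between CD103-CD11b- and CD103+CD11b+ DCs the *Dtx4* difference was -0.73 (adjusted p = 0.000256), under the limit. *Dtx1* read 4.67 to 5.51 with overlap between all populations, and its F test adjusted p was 0.449.

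**Figure D2:**
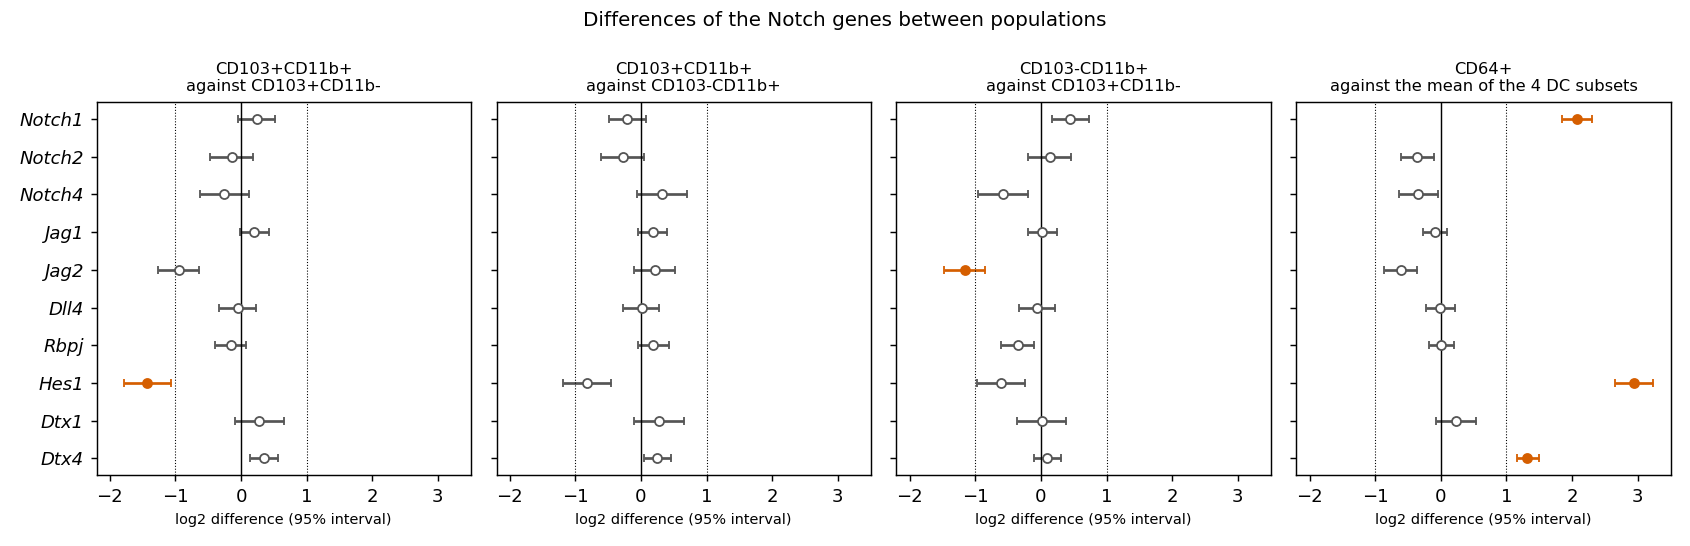
Log2 difference (x axis) of each Notch gene in 4 comparisons, with 95% intervals from limma; filled orange points were called, open points were not, and dotted lines mark a difference of 1 in either direction. In the first panel *Hes1* alone is called, in the second no gene, in the third *Jag2*, and in the last *Notch1*, *Hes1* and *Dtx4*.

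Counted by comparison, 3 of the 10 genes were higher, and none lower, in mϕ than in DCs on average, against 3.38% of all genes higher. Against single subsets, the genes higher in mϕ were 2 over CD103+CD11b+ DCs (3.34% of all genes), 3 over CD103+CD11b- DCs (4.04%), 3 over CD103-CD11b+ DCs (3.02%) and 3 over CD103-CD11b- DCs (3.73%). *Jag2* was the 1 gene lower, against CD103+CD11b- DCs (2.99%). The macrophage marker list, of which 10 genes were measured, had a mean of 10.31 to 10.44 on the mϕ arrays, and all 10 were called higher there. That list read 4.82 to 4.94 on the CD103+CD11b- arrays and 5.54 to 5.82 on the CD103+CD11b+ arrays. Among CD103- DCs it read 6.72 to 7.15 with CD11b and 5.3 to 6.63 without. Within the DCs, *Hes1* was highest in the subset where this list was lowest, whereas *Notch1* had its lowest mean there (5.99). *Dtx4* was lowest in CD103-CD11b- DCs. The part of macrophage transcripts in these levels was not tested.

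Measured from CD103+CD11b- DCs, 1 of 10 genes was lower in CD103+CD11b+ DCs (*Hes1*, against 1.32% of all genes). In each CD103- subset 1 gene, *Jag2*, was lower, against 1.26% of all genes with CD11b and 1.05% without. In the interaction 1 was called on the lower side (*Hes1*, against 0.893%). None was called between the CD11b+ subsets, where 0.461% of all genes were called. Against the double-negative subset none was called with CD103+CD11b+ (1.93%) or with CD103-CD11b+ DCs (0.808%). In these 3 comparisons limma gave an unadjusted p under 0.05 for 2, 4 and 2 of the 10 genes, against 9.22%, 16.8% and 12.7% of all genes. By the methods' *t*-test, at an adjusted p under 0.05 and the same limit on size, none of the 10 genes passed. Of all 19938 genes, 1, 85 and 7 did. The comparisons share populations, so they are not independent. The median difference over the 10 genes was 0 in mϕ against the DC mean, as it was over all genes, and it lay between -0.26 and 0.19 in the comparisons of DC subsets, where that over all genes lay between -0.02 and 0.04.

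Other genes of the pathway were read from a list of 48, arranged by role. By the F test 5 of the 48 differed, or 10.4%, which is close to the 10.7% of all genes that did. They were *Psen2*, *Aph1b* and *Aph1c*, which encode subunits of γ-secretase, among 9 genes for receptor proteases, and *Maml2* and *Maml3*, which encode Mastermind co-activators of the RBPJ complex, among 8 genes for nuclear partners. The other receptor (*Notch3*), 4 other ligands, 4 genes for ligand activation, 5 for glycosyltransferases, 7 for inhibitors and turnover and 10 other targets had no gene called in any comparison.

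*Maml2* was high in mϕ, at 7.03, 6.98 and 7.75 on the 3 arrays. The DC arrays lay between 4.47 and 5.65 with no overlap. The difference from the DC average was 2.07 (SE 0.14, adjusted p = 2.43e-08), or 4.2-fold, and *Maml2* was the 1 gene of 48 called in that comparison, or 2.08%, against 3.38% of all genes higher. *Maml3* was lowest in CD103+CD11b- DCs, at 5.03, 4.92 and 5.18, below all other arrays. It was 1.19 higher in CD103-CD11b+ DCs (adjusted p = 0.000326), where 1.91% of all genes were higher, and 1.67 higher in mϕ (adjusted p = 4.52e-06).

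*Psen2*, which encodes a catalytic subunit, was highest in CD103+CD11b- DCs, at 7.88, 7.69 and 7.79. CD103+CD11b+ DCs read 6.75, 6.69 and 6.75 and CD103-CD11b+ DCs 6.49, 6.63 and 6.8. The differences of -1.06 (adjusted p = 3.19e-05) and -1.15 (adjusted p = 1.45e-05) were called, although after cyclic loess normalization the first was -1 (adjusted p = 1.98e-05) and just missed the limit on size. The mϕ arrays read 7 to 7.59 and the CD103-CD11b- DC arrays 6.91 to 6.99. Their differences from CD103+CD11b- DCs, -0.46 (adjusted p = 0.0132) and -0.84 (adjusted p = 0.000337), were not called. *Psen2* and *Jag2* were thus both highest in CD103+CD11b- DCs, but mϕ had the next highest mean of *Psen2* and the lowest of *Jag2*. *Aph1b* was lowest in CD103-CD11b- DCs, at 5.35, 5.28 and 5.96, which was 1.13 below CD103+CD11b- DCs (adjusted p = 0.000318). Without the acinar-richest arrays the difference was -0.9 (adjusted p = 0.0296), and the methods' *t*-test gave an adjusted p of 0.135, so either ended the call. The plasmacytoid DC, B and plasma cell and T cell lists that moved with *Rbpj* were high in these same arrays, as given above. Their part in the low *Aph1b*, *Aph1c* and *Dtx4* of this population was not tested. *Aph1c* was 1.09 lower in CD103-CD11b- than in CD103+CD11b+ DCs (adjusted p = 0.00343). This call was lost without any 1 of the CD103+CD11b+ arrays, or without replicate 2 or 3 of CD103-CD11b- DCs, at adjusted p-values of 0.0143 to 0.02, and without the acinar-richest arrays (-1.01, adjusted p = 0.102). *Aph1b* and *Aph1c* are near-identical copies, so their signals may be shared.

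**Figure D3:**
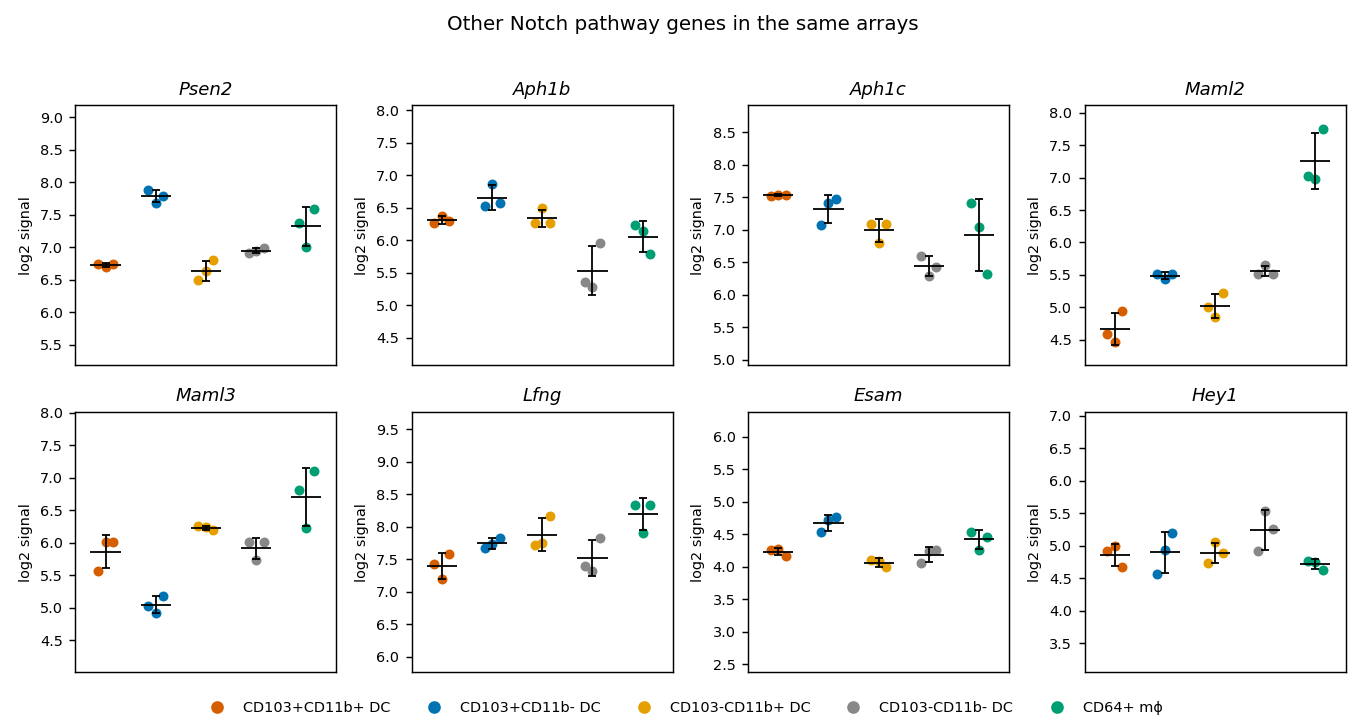
Log2 signal (y axis) of 8 other Notch pathway genes on each array; dots are arrays coloured by population, lines are means, bars are SD (n = 3), and every panel spans 4 log2 units. *Maml2* stands apart in mϕ, *Psen2* is highest and *Maml3* lowest in CD103+CD11b- DCs, and *Hey1* overlaps between populations.

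*Lfng*, which encodes a Fringe enzyme that modifies the ligand preference of Notch receptors, had means of 7.4 to 7.88 in the DC subsets and 8.2 ± 0.25 in mϕ. Its difference from the DC mean, 0.57 (adjusted p = 0.00421), was under the limit on size. *Esam*, a surface marker of Notch-dependent splenic DCs, was at 4.06 to 4.67. It was 0.61 lower in CD103-CD11b+ than in CD103+CD11b- DCs (adjusted p = 0.000384), also under the limit. The population means of *Notch3* (5.19 to 5.39), the ligand *Dll1* (3.98 to 4.07), and the targets *Nrarp* (4.06 to 4.31) and *Hey1* (4.71 to 5.24) differed by less than the limit. Whether the signals of *Esam*, *Dll1* and *Nrarp* lie above the background of the array cannot be said, as for *Jag1* and *Dll4*.

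The genes whose pattern over the 15 arrays was most like that of a Notch gene were looked up among the 2133 other genes that passed the F test. The coefficients describe the arrays and have no p, since the arrays of a population share its identity. *Notch1* was most like *Abca1*, a cholesterol exporter (r = 0.981), *Il10*, an anti-inflammatory cytokine (0.98), and *Tspan32* (0.977). *Hes1* was most like *Laptm4a* (0.976), *Gpr31b* (0.975) and *Serpinb8* (0.971), and *Dtx4* most like *Xdh*, which encodes xanthine dehydrogenase (0.975), *Dusp6*, a phosphatase of ERK (0.968), and *Cln8* (0.967). *Jag2* was most like *Fam149a* (0.929), *Stt3b* (0.927) and *Fndc7* (0.924). *Abca1* and *Il10* had means of 7 and 7.96 in mϕ and of 4.11 to 4.8 in the DC subsets. *Xdh* was at 8.18 in mϕ, and among the DCs at 5.99 in CD103+CD11b+ and 4.85 in CD103-CD11b-, the same ends of the DC order as *Dtx4*. *Fam149a* was at 7.84 in CD103+CD11b- DCs and at 5.23 to 5.95 elsewhere. Among the Notch genes themselves, *Notch1*, *Hes1* and *Dtx4* shared the high level in mϕ. Within the DCs *Hes1* was highest in CD103+CD11b- cells, where *Notch1* had its lowest mean, though no DC comparison of *Notch1* was called.

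**Figure D4:**
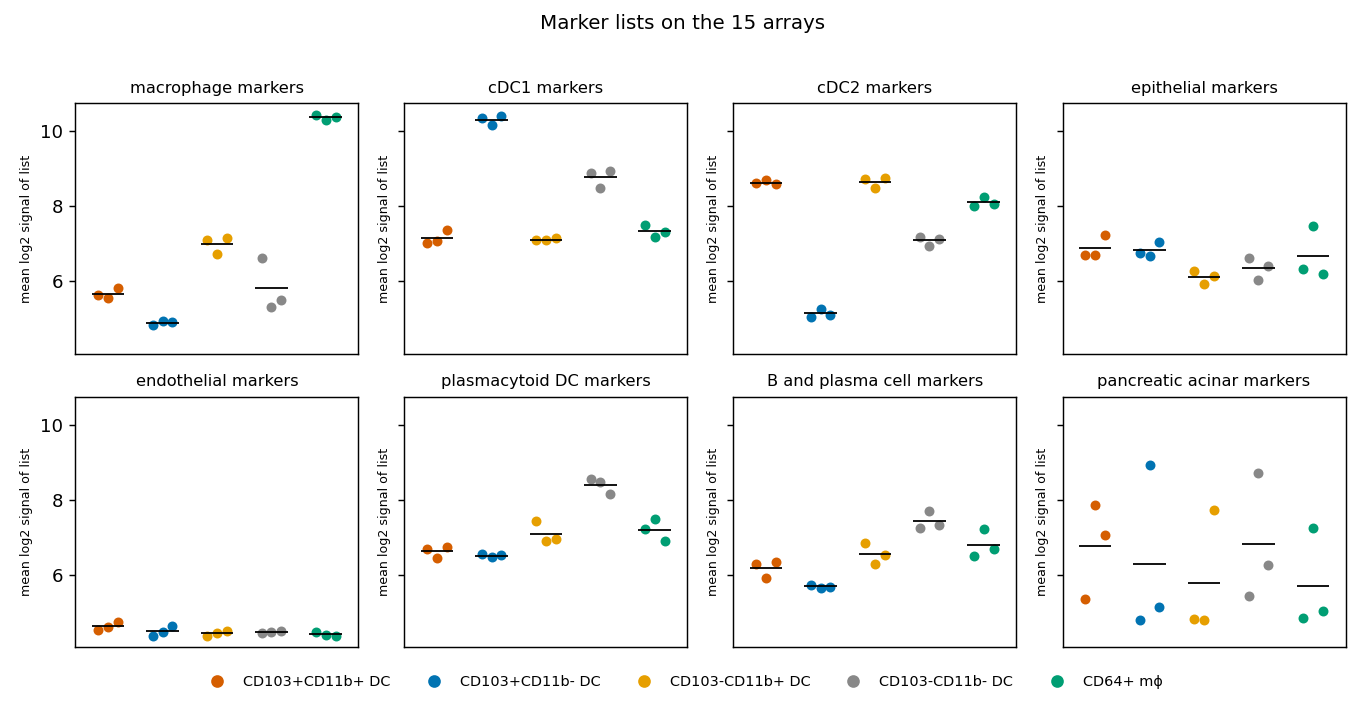
Mean log2 signal (y axis) of 8 lists of cell type markers on each array; dots are arrays coloured by population and lines are population means. The macrophage list is highest in mϕ, the plasmacytoid DC list in CD103-CD11b- DCs, the endothelial list is low on all arrays, and the pancreatic acinar list varies between arrays of every population.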

How the data were processed

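RNA of 15 sorted samples was hybridised to GeneChip Mouse Gene 1.0 ST arrays. The authors made the deposited log2 values with the Robust Multi-array Average procedure (RMA), which corrects background, summarises probes and forces the arrays to 1 distribution by quantile normalization, so differences in total RNA are removed and raw intensities were not used here. Of 35556 probesets, 21789 had 1 gene symbol in the array's annotation, 1621 had several and 12146 were not listed and stayed unnamed. For the 999 genes with more than 1 probeset the one with the highest mean was taken, as in the study's methods, leaving 19938 genes.

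All genes were fitted with limma 3.58.1 (R 4.3.3) on the 5 population means over all 15 arrays, and p-values were adjusted by Benjamini-Hochberg over all genes. A call needed an adjusted p below 0.01 together with a log2 difference larger than 1. With 3 arrays per population, their number limits the precision. The steps were tested on simulated data: for CD103+CD11b+ against CD103+CD11b- DCs on 19938 genes, 97% of 200 genes changed by 1.5 were recovered with 0 false calls. Changes nearer the limit of 1 were not simulated, so recovery there is not known. Alternatives were the mean of all probesets, cyclic loess, a limit on dim genes (log2 above 5 on at least 3 arrays), a trended spread, array weights, a replicate block, an adjusted p of 0.05, treat, the methods' Student's *t*-test, 9 arrays in place of 15, and each array left out. Leaving out the acinar-richest arrays was added after seeing the data.

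The Notch genes, the pathway list and the marker lists were chosen with earlier results of these data known. Named are all 10 genes, other pathway genes called in any comparison, *Notch3*, *Dll1*, *Lfng*, *Nrarp*, *Hey1* and *Esam* whatever their values, the sort genes and defining markers, and the 3 genes most like each Notch gene that passed the F test. Promoters and figures were read and drawn with Python 3.11.15 and matplotlib 3.10.9. The overlapping promoter windows on opposite strands were checked to be reverse complements, in 1707 of 1707 cases.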

Additional observations from a re-analysis of the deposited data

Results flagged for a closer look

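In the CD103 by CD11b interaction, where the CD11b difference among CD103+ DCs is set against that among CD103- DCs, *Hes1* drew attention because the difference between the 2 differences passed its own test. *Hes1* changed by -1.43 (adjusted p = 3.57e-05 by limma) from CD103+CD11b- to CD103+CD11b+ DCs and hardly between the CD103- subsets, where CD103-CD11b- cells were 0.09 above CD103-CD11b+ cells (adjusted p = 0.906). The interaction was -1.34 (SE 0.24, adjusted p = 0.00393). It was -1.23 (adjusted p = 0.0508) without the acinar-richest arrays and lost its call without any 1 of 7 arrays.

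*Aph1b*, a γ-secretase subunit, drew attention for the same reason. It differed by -0.34 between CD103+CD11b+ and CD103+CD11b- DCs (adjusted p = 0.266 by limma), and without CD103 the CD11b- subset was 0.8 below the CD11b+ subset (adjusted p = 0.0141). The interaction was -1.15 (SE 0.24, adjusted p = 0.00927). The call was lost with the replicate block (adjusted p = 0.014), with cyclic loess (0.0107), without the acinar-richest arrays (-0.99, adjusted p = 0.148) and without any 1 of 12 arrays. No population has 4 or more arrays, so single arrays were not tested as outliers.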

How the results depend on the processing

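Of 31 called pairs of a gene and a comparison, recomputed under the alternatives in 774 values, 721 kept their direction and call, 53 kept the direction and lost the call, and 0 turned. With treat, which tests against a difference of 1, no Notch gene was left (0) for CD103+CD11b+, CD103-CD11b+ or CD103-CD11b- against CD103+CD11b- DCs or in the interaction. With the methods' *t*-test the count was also 0 for those 3 comparisons, at adjusted p-values of 0.0514 (*Hes1*), 0.0534 and 0.0616 (*Jag2*). The *t*-test takes no spread from other genes, which also lowers its calls over all genes, for example from 92 to 1 between the CD11b+ subsets and from 530 to 241 between the CD11b- subsets. For mϕ against the DC mean treat left 2 of 3 genes, as *Dtx4* had an adjusted p of 0.0176. It also ended the mϕ calls of *Dtx4* against CD103+CD11b- (0.0505) and CD103-CD11b+ DCs (0.472). That of *Jag2* against CD103+CD11b- DCs (0.125) was lost too. Treat lowers the calls over all genes from 639 to 182 for CD103+CD11b+ against CD103+CD11b- DCs and from 393 to 33 in the interaction. Without the acinar-richest arrays the count was 0 for CD103-CD11b+ against CD103+CD11b- DCs and 0 in the interaction. Over all genes the calls then went from 633 to 643 in that comparison and from 393 to 202 in the interaction. Fewer arrays and fewer acinar transcripts cannot be told apart as the source of a lost call. The changes of the *Aph1b* interaction are given above.

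Leaving out each array gave 4 to 4 Notch genes in the F test and 3 to 3 in mϕ against the DC mean. It gave 1 to 2 for CD103+CD11b+ against CD103+CD11b- DCs, 1 to 1 for either CD103- subset against them, 0 to 1 for CD103+CD11b+ against CD103-CD11b+ and against CD103-CD11b- DCs, 0 to 0 between the CD103- subsets and 0 to 2 in the interaction. The cause of these changes was not tested. Treat was not run for the F test, nor the *t*-test for the interaction or the DC mean.

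With the replicate number as a block all 9 counts were the same, among them 4 in the F test, and the *Aph1b* interaction (adjusted p = 0.014) was the 1 call lost. The calls over all genes moved little, for example from 639 to 650. Deviations of same-number arrays correlated at a mean of 0.12, against -0.06 for different numbers, and 11 of 15 arrays correlated best with their own number. Of 30 same-number pairs 18 were above 0.1, and the lowest was -0.09. What the replicate numbers stand for is not stated, and the main fit did not use them.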
